A study of Mus musculus with 24 samples.

Results

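The cytosolic ribosomal protein genes encode the protein subunits of the ribosomes that translate nuclear mRNA. They were chosen by symbol: protein-coding mouse genes named Rpl or Rps with a number, together with Rpsa, Rplp0, Rplp1 and Rplp2, and without pseudogenes. The rule found 85 of the 36528 gene models in the deposited files, of which 43 belong to the large subunit, 31 to the small subunit, 3 to the stalk of the large subunit (Rplp0, Rplp1, Rplp2) and 8 are named as paralogues (Rpl3l, Rpl7l1, Rpl10l, Rpl22l1, Rpl32l, Rpl36al, Rpl39l, Rps27l). RefSeq places them on 19 chromosomes.

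RNA-seq libraries were made from cells sorted by flow cytometry from mouse Peyer's patches, the lymphoid follicles of the small intestine. High endothelial venule cells (HEV), the blood vessel endothelium through which lymphocytes enter, and fibroblastic reticular cells (FRC), the stromal cells that form the tissue's scaffold, came from mice given polyethylene glycol (PEG) at 10% weight per volume in the drinking water for 3 days, or from unperturbed mice, here called controls. The study's stated purpose for PEG was to lower fluid flow. There were 6 HEV PEG, 4 HEV control, 7 FRC PEG and 7 FRC control libraries, each from 1000 sorted cells per mouse. Strain, sex and age are not given in the sources used here, nor whether HEV and FRC libraries came from the same mice.

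The titles number the libraries from 1 to 24, and 8 index pairs recur 3 times in that order, which divides the libraries into 3 index pools (1 to 8, 9 to 16 and 17 to 24). No extraction or run date was used here. Libraries 1 to 9 and 10 to 24 were compared as well as PEG and control. In FRC that split is the same as the first pool against the other 2 pools. Total counts were 3115003 in HEV PEG library 16 and 12416032 to 21710946 in the other 23. The mean log2(CPM + 1) of 10 FRC markers was 0.48 to 2.51 in HEV libraries and 8.89 to 9.39 in FRC libraries, and that of 10 HEV markers was 8.11 to 8.62 in HEV libraries and 0.89 to 3.70 in FRC libraries (CPM, counts scaled to one common library total).

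Each ribosome holds 1 copy of most of these proteins, so cells need them in similar amounts. In vertebrates their mRNAs typically begin with a C followed by a run of pyrimidines, the 5′ terminal oligopyrimidine (TOP) tract, through which mTOR signalling controls their translation. The genes have also left many processed pseudogenes, near-copies of the mRNA, elsewhere in the genome. A read that matches both a gene and a copy does not map uniquely, and the submitters kept uniquely mapped reads only.

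Promoter windows of 30 bases, from 15 before the RefSeq transcription start to 14 after it, are shown for 4 genes that were lower in FRC libraries 1 to 9 and for Rpl22l1, a paralogue of Rpl22. The longest run of C or T near the start is in capitals. All coordinates are RefSeq GRCm38.p6, and each sequence reads 5′ to 3′ on the gene's strand.
Rplp2, chr7:141447636-141447665, plus strand: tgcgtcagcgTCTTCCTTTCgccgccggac
Rpl13a, chr7:45128731-45128760, minus strand: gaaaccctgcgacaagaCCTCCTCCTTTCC
Rpl7a, chr2:26910792-26910821, plus strand: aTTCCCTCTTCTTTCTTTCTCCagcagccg
Rps26, chr10:128626492-128626521, minus strand: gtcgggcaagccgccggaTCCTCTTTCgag
Rpl22l1, chr3:28805493-28805522, plus strand: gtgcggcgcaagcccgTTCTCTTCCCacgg
The run is 10 bases long in Rplp2, 21 in Rpl7a, 9 in Rps26 and 10 in Rpl22l1. It is 14 bases long in Rpl13a, where it runs on past the window shown. Other genes lower in FRC libraries 1 to 9 had short runs, of 2 bases in Rpl4 and 3 in Rps15, Rps3 and Rpl26. Of 12 such lower genes with a single RefSeq promoter window, 6 had a run of 6 or more. Of the 65 ribosomal protein genes with a promoter in the table, 36 (55.4%) had a run of 6 or more C or T on the gene's strand beginning between 15 bases before and 10 after the start, against 31.3% of 27025 genes. The letters CTTTCC were found on either strand of the 100 bases around the start in 33.8% of the ribosomal protein genes and 10.3% of all genes. CCGGAAG, a form of ETS family sites, was found in 21.5% and 5.98%. A match describes the letters and is not evidence of a bound factor.

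Stretches that a gene shares with its copies are shown for 3 members, since they bear on what the counts can measure. In each, the 50 bases in capitals occur exactly in other annotated genes, and positions count from the start of the GENCODE transcript (GRCm38).
Rpl7a, positions 483 to 552: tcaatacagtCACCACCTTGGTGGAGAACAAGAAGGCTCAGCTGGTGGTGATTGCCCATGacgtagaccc
Rpl21, positions 798 to 867: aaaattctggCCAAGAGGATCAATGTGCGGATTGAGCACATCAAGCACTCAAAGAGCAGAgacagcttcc
Rpl29, positions 302 to 371: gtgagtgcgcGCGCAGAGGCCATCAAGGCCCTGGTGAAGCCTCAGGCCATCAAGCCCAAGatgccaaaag
The capitals of Rpl7a are found in 45 other genes, those of Rpl21 in 24 and those of Rpl29 in 25. Of 81 members with a transcript and a measured level, 80 shared at least 1 stretch of 50 bases with another gene.

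Levels per length spread widely among genes whose proteins are mostly used in equal numbers. Of the 85 genes, 82 had reads in all 24 libraries. Median RPKM (reads scaled to gene length and library depth, as deposited) over the 24 libraries was highest for Rpl4 (1204), Rpl8 (1159) and Rps14 (1145), core proteins of the large, large and small subunit. The median over members was 31.7, with quartiles of 17.5 and 90.1. Among genes read in every library it was lowest for Rpl32l (3.71), Rpl21 (5.31) and Rpl23a (5.92). Within a library, the 90th percentile of RPKM over the 82 genes was 28.9 to 84.3 times the 10th, with a median of 50.1. The same ratio of CPM values, without the length, had a median of 44.7.

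Genes with a low percent of shared stretches had the higher median. The 6 genes with under 10% of their 50-base stretches in another gene had a median RPKM of 603, with a range of 14.5 to 1159. The percent depends on the length of the transcript chosen, whose median was 1978 bases for them and 679.5 for genes with 50% or more. Among them Rps15a (14.5 RPKM) and Rps20 had transcripts of 5130 and 3706 bases and shared stretches with 66 and 51 other genes. The 25 genes with 10% to 50% had a median of 69.2 (5.31 to 1204), and the 50 genes with 50% or more had a median of 28.1 (5.92 to 483). Across these 81 genes Spearman's rho was -0.44, and it was -0.54 with stretches of 100 bases. These are descriptions across genes that share libraries, and the read length behind the unique mapping was not used. RPKM values here count uniquely mapped reads only, and the order of 2 genes' levels is not taken as an order of mRNA amounts.

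**Figure D1:**
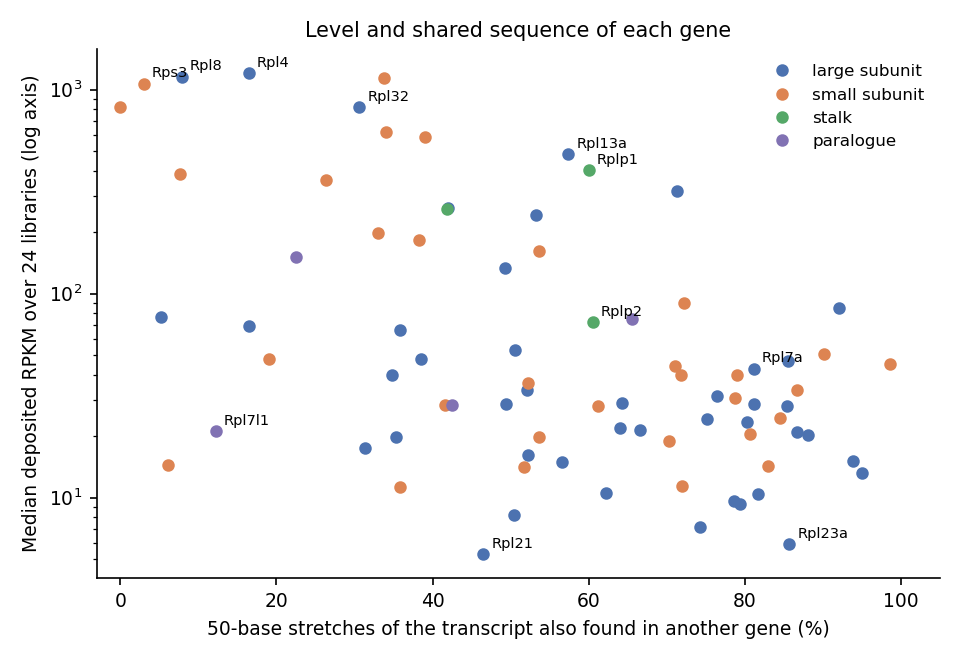
Median deposited RPKM over 24 libraries (log axis) against the percent of 50-base stretches of the transcript that also occur in another gene, with 1 point per gene coloured by class. Genes with 50% or more shared stretches reach 483 RPKM at most. The 4 genes above 1000, Rpl4, Rpl8, Rps14 and Rps3, lie at 33.8% (Rps14) or less.

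Reads were also counted in models of some copies. Whether they came from RNA of the copies or from mRNA of the genes was not tested. The files hold 26 pseudogene models named after 14 of the genes. Rpl14-ps1 had 48115 reads over the 24 libraries, against 61262 for Rpl14, and Rplp2-ps1 had 21761, against 20182 for Rplp2. Rpl32 has the same count in every library as 2 models without a symbol, so its reads are counted for each of them. Counting carried no strand information in the sources used here, so reads of overlapping antisense genes cannot be told apart.

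Of the paralogues, 5 were read in every library, with median RPKM of 152 for Rps27l, 75 for Rpl22l1, 28.4 for Rpl36al, 21.3 for Rpl7l1 and 3.71 for Rpl32l. The other 3, whose known roles lie in other tissues, were barely read. Rpl10l, which stands in for X-linked Rpl10 in male germ cells, had 5 reads in all, in HEV control library 17. Rpl39l, a paralogue of Rpl39 known from male germ cells, had 49 reads, in HEV PEG library 7 and HEV control library 24. Rpl3l, the heart and skeletal muscle paralogue of Rpl3, had 303 reads in 6 libraries and reached 9.40 CPM in FRC control library 12. These 3 did not pass the filter on low counts, and the other 82 genes did.

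Ribosomal protein genes held 1.05% to 2.65% of the counted reads of a library. The share was 1.55%, 1.72%, 1.99%, 2.21%, 2.47% and 2.65% in the HEV PEG libraries, with a median of 2.10%, and 1.41%, 1.80%, 1.83% and 2.12% in the HEV controls. It was 1.13% to 1.70% in FRC PEG libraries (median 1.56%) and 1.05% to 2.08% in FRC controls (median 1.53%). PEG and control ranges overlapped in both cell types. By library number the FRC ranges did not overlap: 1.05% to 1.23% in the 6 FRC libraries of 1 to 9 and 1.53% to 2.08% in the 8 of 10 to 24. The HEV ranges overlapped, at 1.41% to 1.80% in 3 libraries and 1.72% to 2.65% in 7. Reads of large subunit genes were 0.660 to 0.990 times those of small subunit genes in HEV and 0.869 to 1.12 times in FRC. In bulk samples, less RNA per cell and fewer cells of a type cannot be told apart.

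**Figure D2:**
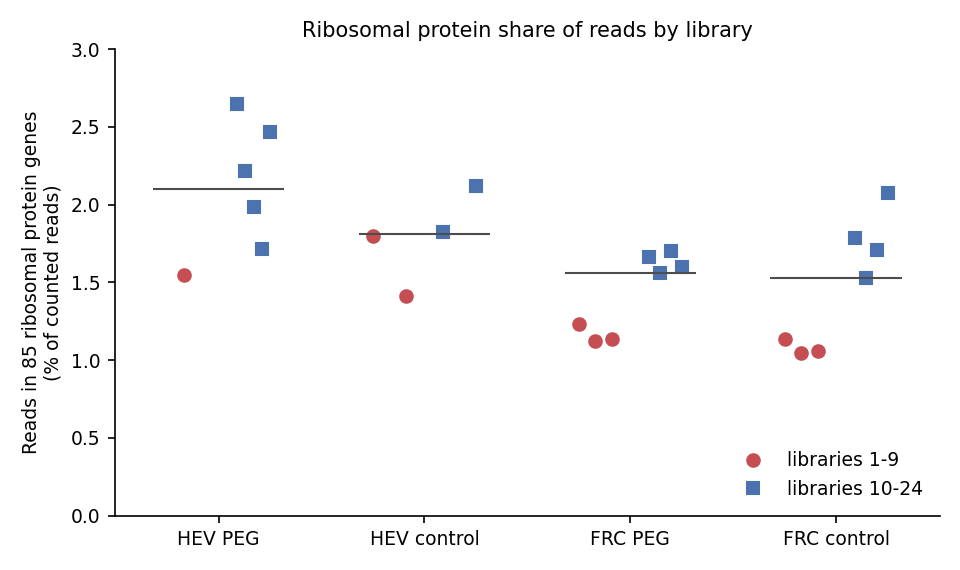
Percent of counted reads in the 85 ribosomal protein genes, 1 point per library, by group, with circles for libraries 1 to 9, squares for libraries 10 to 24 and a line at each group's median. All FRC libraries of 1 to 9 lie at 1.23% or less and all of 10 to 24 at 1.53% or more.

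PEG against control in FRC asks whether PEG, given with the purpose of lowering fluid flow, goes with a change in these genes. No ribosomal protein gene passed an adjusted p of 0.05 (edgeR's quasi-likelihood test with index pool as a covariate, Benjamini-Hochberg over all genes, two-sided), where 0% of 14595 genes passed. At an unadjusted p under 0.05 there were 6 of the 82 genes, or 7.32%, against 6.78% of all genes. DESeq2 and limma-voom also called none of the 82, with 7 and 14 at an unadjusted p under 0.05. The median log2 fold change of the genes was -0.12, against 0.014 for all genes, and 55 of 82 were negative. In libraries 1 to 9 alone that median was 0.041, and in libraries 10 to 24 alone it was -0.15. All FRC PEG libraries carry the same i5 index, as do FRC controls 4, 12 and 20, while FRC controls 5, 6, 13 and 21 carry the other one.

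Rplp0, the stalk base, had 340.3 to 532.9 CPM (median 492.4) in PEG and 318.2 to 428.9 CPM (median 347) in control libraries, a log2 fold change of 0.32 ± 0.11 (SE, n = 7 each, edgeR adjusted p = 0.611). The ranges overlapped. Rpl26, a large subunit protein, had 138.4 to 217.8 CPM (median 168.9) in PEG and 132.4 to 432.5 CPM (median 320.5) in control libraries, at -0.51 ± 0.17 (edgeR adjusted p = 0.606). The 4 highest controls of Rpl26 were all libraries of 10 to 24, and in libraries 1 to 9 alone its log2 fold change was 0.049. Rpl22, a large subunit protein, was at -0.33 ± 0.13 (edgeR adjusted p = 0.671).

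PEG against control in HEV gave no call either. None of the 82 genes passed by edgeR, where 0% of 14308 genes passed, and none did by DESeq2 or limma-voom. At an unadjusted p under 0.05 edgeR had 0 of the 82, against 6.19% of all genes. The median log2 fold change was 0.21, against 0.013 for all genes, with 55 of 82 positive. Fitted with index pool and i5 index together the median was -0.039. All 6 HEV PEG libraries carry the same i5 index, as do HEV controls 8 and 24, while HEV controls 9 and 17 carry the other one.

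Rpsa, the laminin receptor protein of the small subunit, had 44.5, 44.7, 48.9, 81.8, 117.3 and 122 CPM in HEV PEG libraries and 27.0, 38.2, 56.4 and 70.1 CPM in HEV controls. The ranges overlapped, and its log2 fold change was 0.75 ± 0.39 (SE, n = 6 and 4, edgeR adjusted p = 0.829). The highest value came from HEV PEG library 16, the library of lowest depth. Rpl13a, a large subunit protein, was at 0.46 ± 0.27 (edgeR adjusted p = 0.829). Rpl27a was at -0.37 ± 0.25 and Rpl15 at -0.33 ± 0.35, both large subunit proteins (edgeR adjusted p = 0.844 and 0.892).

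The PEG effect in HEV minus that in FRC was tested as an interaction over all 24 libraries. It called none of the 82 genes by edgeR, DESeq2 or limma-voom, while by edgeR 0.0110% of 18203 genes passed. Of the 82 genes, 8 (9.76%) had an unadjusted p under 0.05, against 10.1% of all genes. The smallest p-values were those of Rpsa (1.01 ± 0.40, edgeR adjusted p = 0.40), Rpl22l1 (0.99 ± 0.40, edgeR adjusted p = 0.405) and Rpl15 (-1.05 ± 0.43, edgeR adjusted p = 0.408). Rpl27a was at -0.57 ± 0.30 (edgeR adjusted p = 0.536). The median difference was 0.25, against 0.040 for all genes, and it was -0.30 in libraries 1 to 9 alone, which hold 1 HEV PEG library.

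**Figure D3:**
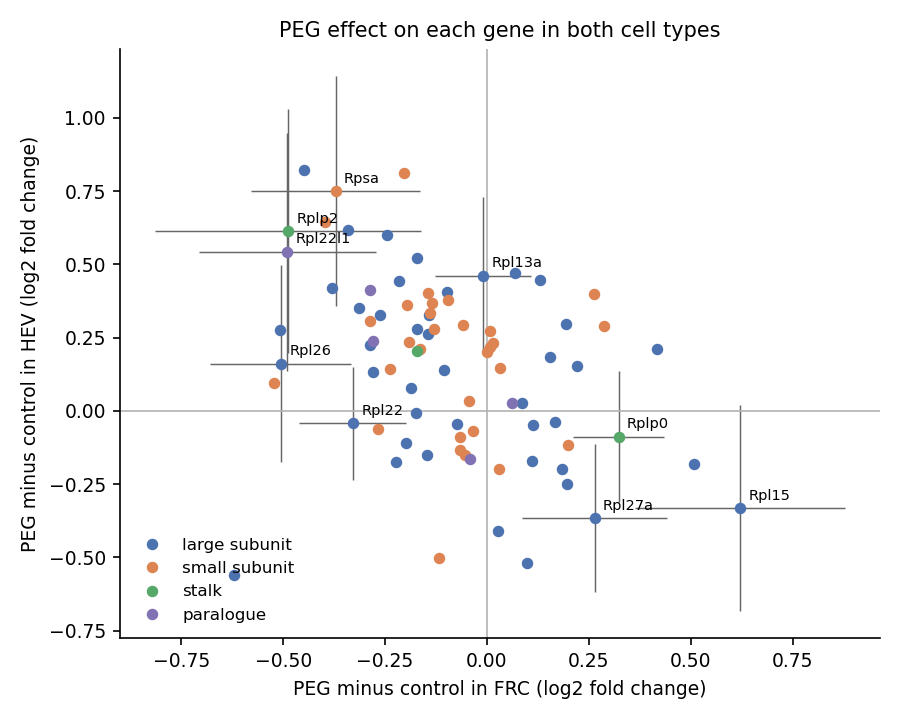
Log2 fold change of PEG minus control in FRC (horizontal) and in HEV (vertical) for the 82 genes tested, coloured by class, with bars of 1 SE on the labelled genes. No gene passed in either cell type, and most points lie below 0 on the horizontal and above 0 on the vertical axis (55 of 82 each).

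In FRC, many ribosomal protein genes were lower in the libraries of low number. In libraries 1 to 9 against 10 to 24, with treatment as a covariate, 23 of the 82 genes (28.0%) fell and 0 rose (edgeR adjusted p under 0.05), while over all 14595 genes 5.64% were lower, 6.94% higher and 12.6% called in either direction. The 23 were 10 large subunit, 10 small subunit, 2 stalk genes and 1 paralogue. The median log2 fold change of the 82 was -0.31, against -0.0062 for all genes, and 66 were negative. At an unadjusted p under 0.05 there were 29 of the 82, where 25.3% of all genes had one.

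Rps20, a small subunit protein, had 101.4, 121.3, 122.8, 131, 131.5 and 137.8 CPM in FRC libraries 1 to 9, and 227.4 to 402.4 CPM (median 286.6) in FRC libraries 10 to 24. The ranges did not overlap, and it fell by 1.18 ± 0.15 on the log2 scale (SE, n = 6 and 8, edgeR adjusted p = 9e-05). Rpl4, the highest of the genes per length, had 1217 to 1517 CPM (median 1313) in libraries 1 to 9 and 1779 to 2738 CPM (median 2471) in libraries 10 to 24, also without overlap, and fell by 0.80 ± 0.11 (edgeR adjusted p = 0.00017). Rpl32 fell by 0.82 ± 0.12 and Rps15, a small subunit protein, by 0.79 ± 0.13 (edgeR adjusted p = 0.00022 and 0.00057).

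Rplp1 and Rplp2 of the stalk were among the genes that fell. Rplp2, a stalk protein that binds as a dimer with Rplp1, had 14.3 to 22.4 CPM (median 17.0) in FRC libraries 1 to 9 and 24.9 to 144.7 CPM (median 71.8) in 10 to 24, and fell by 1.87 ± 0.34 (edgeR adjusted p = 0.0017). Its pseudogene model Rplp2-ps1 had 10.5 to 19.7 CPM and 30.0 to 147.7 CPM in the same libraries, a log2 fold change of -2.18 ± 0.33 (edgeR adjusted p = 0.00033). The counts of both models were lower, and whether they measure separate RNAs was not tested. Rplp1 fell by 0.70 ± 0.17 (edgeR adjusted p = 0.0098). Rplp0 was at -0.21 ± 0.11 and did not pass (edgeR adjusted p = 0.276). Rpsa had 23.8 to 37.0 CPM (median 29.9) in libraries 1 to 9 and 44.5 to 105.7 CPM (median 67.8) in 10 to 24, and fell by 1.14 ± 0.21 (edgeR adjusted p = 0.0018).

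Others that fell included Rps3, Rps14, Rps19, Rps21 and Rps26 of the small subunit, Rpl6, Rpl7, Rpl7a, Rpl8, Rpl13a, Rpl14, Rpl26 and Rpl37a of the large subunit, and Rps27l, a p53-induced paralogue of Rps27. Their log2 fold changes were between -1.04 (Rpl6) and -0.42 (Rps19). Rps3a1 and Rpl10 were on the other side, at 0.47 ± 0.16 and 0.48 ± 0.20, and did not pass (edgeR adjusted p = 0.068 and 0.122). The 23 genes had a median level of 262 CPM and a median of 39.0% shared stretches, while the other 59 had 26.5 CPM and 66.1%. Of the 23, 6 of 12 with a single RefSeq promoter window had a run of 6 or more C or T, and of the other 59, 21 of 41.

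The FRC difference was also seen with either treatment alone in its median, at -0.27 in PEG and -0.43 in control libraries, but PEG libraries alone called 1 gene and control libraries alone 19. The mean log2(CPM + 1) of 16 intestinal epithelial markers was 0.64 to 5.45 in FRC libraries 1 to 9 and 1.31 to 7.84 in 10 to 24. With that level in the model 15 genes were lower. Ptprc, the only gene of the leukocyte list, was at 0 to 0.148 in FRC libraries 1 to 9 and 0.167 to 2.80 in 10 to 24 on the same scale, without overlap. The mean of the myeloid markers went the other way, at 2.19 to 3.22 and 0.99 to 2.38 in the same 2 sets, with overlapping ranges. In FRC libraries 1 to 9, 13686 to 14884 genes had 10 or more reads, and in 10 to 24 there were 14976 to 15718, also without overlap. The index pool and library number cannot be told apart in FRC. HEV markers were at 0.89 to 2.32 in FRC libraries 1 to 9 and 1.29 to 3.70 in 10 to 24, with overlapping ranges. B cell markers were at 0 to 0.47 and 0.03 to 1.26, also overlapping. The part of the HEV, B cell, leukocyte and myeloid RNA in the difference was not tested, nor that of the number of genes read. That of the epithelial RNA was not tested beyond the model above.

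**Figure D4:**
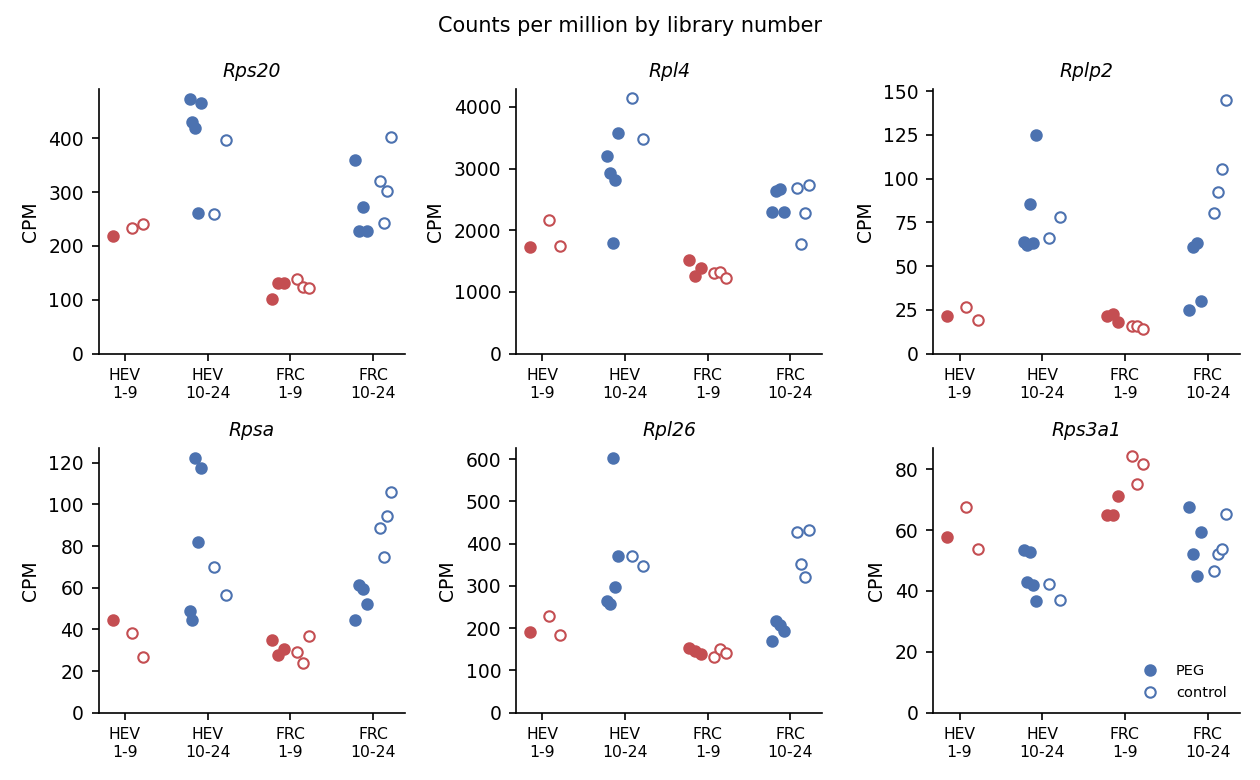
CPM of 6 genes by cell type and library number, 1 point per library, filled for PEG and open for control. Rps20 and Rpl4 in FRC lie at or below 137.8 and 1517 CPM in libraries 1 to 9 and at or above 227.4 and 1779 CPM in 10 to 24, and Rps3a1 is drawn as a gene of the opposite sign.

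In HEV, 1 of 82 genes fell in libraries 1 to 9 and 0 rose by edgeR, where 0.874% of 14308 genes were lower, 1.76% higher and 2.63% called in either direction. Rplp2 had 19.0, 21.3 and 26.6 CPM in HEV libraries 1 to 9 and 62.2 to 125.2 CPM (median 65.9) in 10 to 24, without overlap, and fell by 1.75 ± 0.35 (SE, n = 3 and 7, edgeR adjusted p = 0.026). Rplp2-ps1 was at -2.14 ± 0.33 (edgeR adjusted p = 0.0075). The Rplp2 call was lost without HEV PEG library 7 (log2 fold change -1.66), without HEV control library 9 (-1.68), library 17 (-1.81) or library 24 (-1.72), so 0 of the 82 were then called. Without HEV PEG library 16 there were 2. Rpl4 had 1726, 1741 and 2170 CPM in libraries 1 to 9 and 1789 to 4143 CPM (median 3206) in 10 to 24, at -0.83 ± 0.21 (edgeR adjusted p = 0.058). Rps4x and Rps3a1, small subunit proteins, were at 0.45 ± 0.23 and 0.51 ± 0.29 (edgeR adjusted p = 0.320 and 0.375). The median of the 82 was -0.30, against -0.067 for all genes. Epithelial markers were at 0.60 to 3.95 in HEV libraries 1 to 9 and 0.69 to 7.42 in 10 to 24, and with their level in the model none of the 82 genes was called.

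The library number effect in HEV minus that in FRC called none of the 82 genes by edgeR, DESeq2 or limma-voom, where by edgeR 0.286% of 18203 genes passed, 0.0769% higher and 0.209% lower. At an unadjusted p under 0.05 there were 2 of the 82, against 9.12% of all genes. Rpl14 was at 0.55 ± 0.25, Rps20 at 0.51 ± 0.27, Rpl22l1 at -0.83 ± 0.38 and Rpl41 at -0.61 ± 0.30 (edgeR adjusted p from 0.506 to 0.581). The 1 call in HEV and 23 in FRC are therefore not shown to differ.

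HEV against FRC was set beside these, separately under PEG and in controls. Under PEG 18 of the 82 genes rose in HEV, or 22.0%, and 1 fell (edgeR, adjusted p under 0.05), where 12.5% of 14991 genes were higher, 14.4% lower and 26.8% called in either direction. The 18 were 9 large and 9 small subunit genes. Rps3, a small subunit protein at the mRNA entry, had 3442 to 5607 CPM (median 4047) in HEV PEG libraries and 1528 to 2447 CPM (median 2236) in FRC PEG libraries. The ranges did not overlap, and it rose by 1.02 ± 0.14 (SE, n = 6 and 7, edgeR adjusted p = 7.7e-05). Rps21 rose by 0.95 ± 0.17 and Rps14 by 0.75 ± 0.16, both small subunit proteins (edgeR adjusted p = 0.00077 and 0.0023). Rpl10, a large subunit protein added late in assembly, had 46.7 to 59.7 CPM (median 54.1) in HEV PEG and 90.1 to 217 CPM (median 107.7) in FRC PEG libraries, without overlap, and fell by 1.03 ± 0.24 (edgeR adjusted p = 0.005). Rpl10a, another large subunit protein, was at -0.74 ± 0.32 (edgeR adjusted p = 0.113).

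That count changed when single libraries were left out. It was 8 without HEV PEG library 7, 9 without FRC PEG library 11, 10 without FRC PEG library 19, and 11 without FRC PEG library 10 or HEV PEG library 23. It was 1 in libraries 1 to 9 alone, which hold 1 HEV PEG library, and 8 in libraries 10 to 24 alone. All HEV PEG libraries carry 1 i5 index and all FRC PEG libraries the other, so cell type and i5 index cannot be told apart under PEG. Epithelial markers were at 0.69 to 7.42 in HEV PEG and 1.53 to 7.84 in FRC PEG libraries, and with their level in the model 17 genes were higher. B cell markers were at 0.25 to 2.62 in HEV PEG and 0.04 to 1.26 in FRC PEG libraries. Myeloid markers went the other way, at 0.71 to 1.94 and 1.93 to 2.99. The part of the B cell and myeloid RNA in the difference was not tested.

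In controls 3 of the 82 genes rose in HEV and 1 fell, where 10.4% of 15743 genes were higher, 14.2% lower and 24.6% called in either direction. Rplp0 had 468.3, 538.8, 608.6 and 681.5 CPM in HEV controls and 318.2 to 428.9 CPM (median 347) in FRC controls, without overlap, and rose by 0.71 ± 0.16 (SE, n = 4 and 7, edgeR adjusted p = 0.0069). Rps3 had 2928, 3499, 3788 and 4463 CPM in HEV controls and 1336 to 3328 CPM (median 2200) in FRC controls, and rose by 0.79 ± 0.19 (edgeR adjusted p = 0.011). Without HEV control library 8 it was at 0.47 and did not pass. Rpl41, the smallest protein of the ribosome, fell by 0.60 ± 0.19 (edgeR adjusted p = 0.039), and its call was lost without FRC control library 4, 5, 12, 13, 20 or 21 or HEV control library 9 or 17. Rpl22l1 was at -0.88 ± 0.34 (edgeR adjusted p = 0.086). Without HEV control library 8 there were 4 lower calls in place of 1, and in libraries 10 to 24 alone none of the 82 was called. B cell markers were at 0.44 to 2.16 in HEV controls and 0 to 1.04 in FRC controls. Myeloid markers were at 0.75 to 2.26 and 0.99 to 3.22. The part of the B cell and myeloid RNA was not tested here either.

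**Figure D5:**
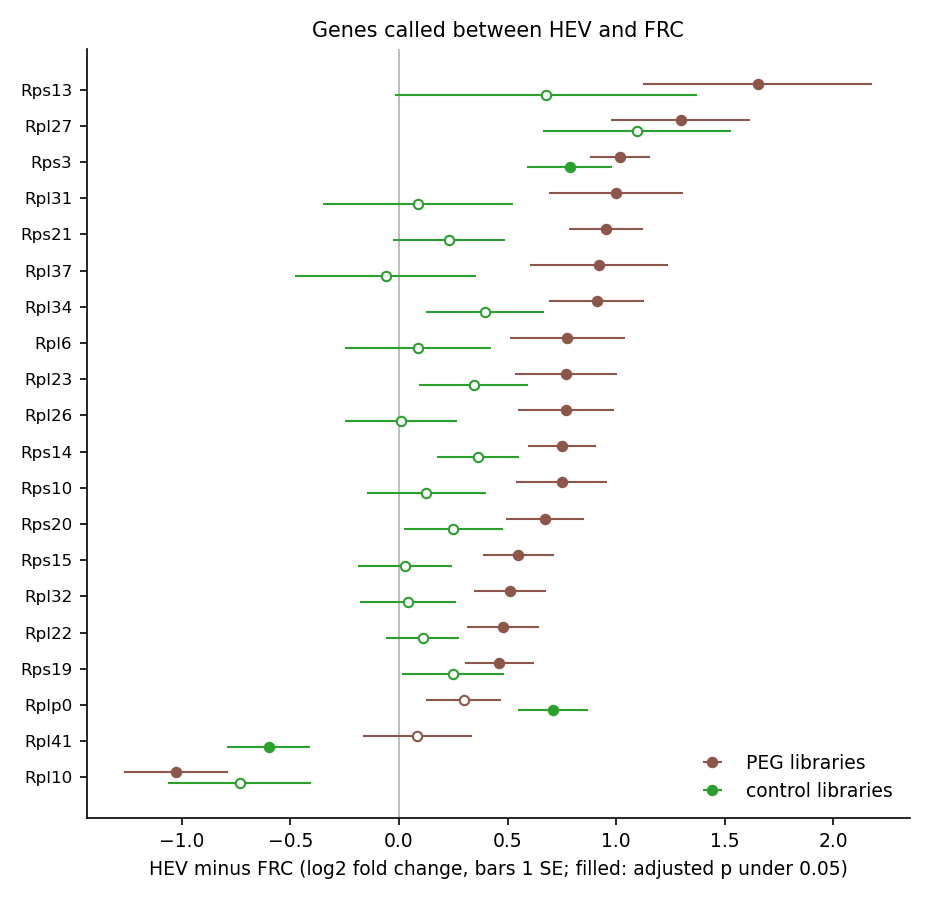
Log2 fold change of HEV minus FRC with bars of 1 SE for 20 of the genes called under PEG or in controls, filled where the adjusted p was under 0.05. Rps3 is filled in both, and Rpl10 is filled under PEG only.

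Other genes of the translation machinery were read from lists. In FRC libraries 1 to 9 against 10 to 24, where 5.64% of all genes were lower and 6.94% higher with a median of -0.0062, 12 of 78 mitochondrial ribosome genes fell and 0 rose by edgeR, with a list median of -0.43. Among them were Mrps34 (-1.28) and Mrps18c (-1.20). Of 6 elongation factors (median 0.15) Eef2, which moves the ribosome along the mRNA, rose by 0.54 and Eef1d fell by 1.08. Of 27 ribosome biogenesis genes (median -0.10) 1 rose, the rRNA methyltransferase Nop2 (2.09), and 5 fell, among them nucleolin, Ncl (-0.75). Of 9 further mRNAs with a TOP tract (median -0.13) Eif4b (0.85) and Tpt1 (0.55) rose and Nap1l1 (-0.78) fell. Of 14 eIF3 subunits (median -0.0026) Eif3g (-0.84) fell. Of 11 regulators of ribosomal protein mRNAs (median -0.39), the transcription factor Myc rose by 1.09 and Rheb, the GTPase that activates mTOR complex 1, fell by 0.76. Rack1, a scaffold on the small subunit outside the name rule, fell by 0.50.

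In HEV libraries 1 to 9, where 0.874% of all genes were lower and 1.76% higher, Eef2 (1.11) and Eif4b (1.00) rose. Rptor, a component of mTOR complex 1 among the regulators, fell by 4.00 ± 0.79 (SE, edgeR adjusted p = 0.024). It was near the floor in HEV libraries 1 to 9, at a mean of 2.39 CPM (SD 1.5), and averaged 27.9 CPM (SD 19.7) in 10 to 24. None of the 14 eIF3, 27 biogenesis or 78 mitochondrial ribosome genes was called there.

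Between HEV and FRC under PEG, where 12.5% of all genes were higher and 14.4% lower, 2 of 6 elongation factors rose in HEV, Eef1b2 (0.58) and Eef2 (0.42), and none fell. Of the biogenesis genes Nop58 (1.49) and Gnl3 (0.95) rose and none fell, and of the eIF3 subunits Eif3a (0.53) rose and none fell. Of the mitochondrial ribosome genes 2 rose, Mrpl17 (0.80) and Mrpl33 (0.71), and 4 fell, among them Mrps26 (-1.31) and Mrpl13 (-1.24). Vim, vimentin, the only gene of the TOP list called, fell by 0.66. Tsc1, which restrains mTOR complex 1, was the only regulator called and fell by 1.91. The list medians were between -0.19 (mitochondrial ribosome) and 0.26 (elongation factors), against -0.082 for all genes.

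In controls, where 10.4% of all genes were higher and 14.2% lower, 3 of the 6 elongation factors rose in HEV, with Eef1a1 at 0.88 and Eef1b2 at 0.68, and none fell. Eif3e (1.06) was the only eIF3 subunit called. In the TOP list Eif4b rose by 1.06, while Vim fell by 0.92 and Nap1l1 by 1.15. In the biogenesis list Nop58 rose by 1.11, while Ebna1bp2 fell by 1.22 and Rrs1 by 1.12. Of the regulators only Rps6kb1, the ribosomal protein S6 kinase, was called, and it rose by 0.81. Of the mitochondrial ribosome genes Mrpl17 (0.62) rose and 6 fell, among them Mrpl27 (-1.39) and Mrps28 (-1.28). The list medians were between -0.21 (mitochondrial ribosome) and 0.54 (elongation factors), against -0.16 for all genes. Rack1, outside these lists, rose by 0.49. Neither PEG comparison called a gene of these lists.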

How the data were processed

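Poly(A) RNA of sorted cells was amplified by template switching and sequenced from Nextera libraries, per the labels' protocols. The submitters dropped low-quality, rRNA and adapter reads and counted only reads that mapped uniquely, per the labels' protocols. The aligner was GSNAP and the build mm9, per the submitters' processing notes, while the protocol text names a human build. The deposited counts are whole numbers of reads per Entrez gene model. The deposited RPKM values were scaled by the authors with a size factor per library. A symbol was found for 85.0% of models, which held 97.3% of reads.

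Counts were tested with edgeR 4.0.16 (TMM scaling, a count minimum of 10 in filterByExpr, robust quasi-likelihood fit, two-sided, Benjamini-Hochberg over all genes tested, threshold 0.05) in R 4.3.3. SE is the log2 fold change divided by the square root of F. Index pool was the covariate of the PEG and cell type comparisons, and treatment that of the library number comparisons. DESeq2 1.42.0, limma-voom (limma 3.58.1), other scalings, filters, covariates and sample sets, and leaving out each library, were alternatives. The scripts were tested on simulated data. Replicates are separate libraries of a group, with correlations of 0.729 to 0.891 within groups and no identical pair. The members and lists were chosen with earlier results of these data known. Genes were named by rule: in each comparison, of those averaging at least 5 CPM, up to 4 called per direction by smallest p, filled to 2 as values, plus the paralogues, Rpsa, the stalk genes and the extremes of RPKM. Some genes the rule named are not reported here. Others named were chosen after their values were seen. Promoters are from RefSeq GRCm38.p6 and transcripts from GENCODE.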

Additional observations from a re-analysis of the deposited data

Results flagged for a closer look

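Among 120 groups of 4 to 10 libraries tested for a stray library by Dixon's criterion, 5 were flagged, and chance flags about 1 in 20 groups. Rpl10 had 217 CPM in FRC PEG library 2, with the next library at 121.4 CPM. Rpl10a had 11.74 CPM in HEV control library 24, with the next at 25.16 CPM. Rpl7l1, a paralogue of Rpl7, had 24.74 CPM in HEV control library 8, with the next at 74.81 CPM. Rps20 had 397.4 CPM in HEV control library 24, with the next at 259.7 CPM. Rps4x had 161.2 CPM in HEV control library 8, with the next at 100.8 CPM.

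Reads in pseudogene models lie outside the 85 genes. Rpl14-ps1 held 48115 reads over the 24 libraries and Rplp2-ps1 held 21761.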

How the results depend on the processing

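No paired analysis was made, because the sources used here do not say which libraries, if any, came from the same mouse. Any pairing of HEV and FRC libraries by mouse was therefore not modelled. Under the 4 other scalings no median of all genes moved by over 0.1. Of 1167 values of 41 named genes under the alternatives, 1117 kept their direction and side of the threshold, 36 lost the call, 8 gained one and 6 changed sign, and the causes were not tested. The 6 were, in libraries 1 to 9 alone, Rpl26 for PEG in FRC (0.049), Rpl13a for PEG in HEV (-0.029), Rpl22l1 for the PEG difference (-0.11) and Rpl10a for HEV minus FRC under PEG (0.013); with index pool and i5 index, Rpl27a for the PEG difference (0.0012); and in controls alone, Rpl41 for the library number difference (0.15). The PEG median in HEV was -0.039 with pool and i5 index and -0.030 in libraries 1 to 9 alone, and the median PEG difference was -0.30 there. For library number in FRC, lower calls were 1 in PEG libraries alone and 15 with epithelial markers as a covariate (added after seeing the data), and DESeq2 called 1 gene higher. In HEV lower calls were 2 with no filter, a count minimum of 50 or no covariate, 3 with all 24 libraries, 5 with DESeq2, and 0 with limma-voom, without library 9, in PEG or control libraries alone or with the epithelial level, and 0 to 2 when each library was left out. The median library number difference was 0.43 in controls alone. For HEV minus FRC in controls, higher calls were 5 with the library number covariate, all 24 libraries or libraries 1 to 9 alone, and 0 in libraries 10 to 24 alone. Lower calls there were 2 with DESeq2, 3 with limma-voom and 0 with no covariate, the library number covariate, all 24 libraries, either set of libraries alone or the epithelial level, and 0 to 4 when each library was left out; the median was 0.55 in libraries 1 to 9 alone. Under PEG, higher calls were 5 with no filter, 1 in libraries 1 to 9 alone, where lower calls were 0, 8 in libraries 10 to 24 alone, and 8 to 22 when each library was left out. For the PEG effect by library number in FRC, DESeq2 called 1 gene lower. As a share of summed RPKM, the medians were 4.37% in HEV PEG, 3.62% in HEV control, 3.09% in FRC PEG and 3.33% in FRC control libraries. The genes at a few CPM are limited by depth, most of all in HEV PEG library 16.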

Other observations

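A set of genes in FRC libraries 10 to 24 was noticed after the values were seen. Rplp2 had 24.9, 30.2, 60.7 and 63.5 CPM in the PEG libraries and 80.1, 92.6, 105.6 and 144.7 CPM in the controls. Rpsa had 44.5 to 61.1 CPM in PEG and 74.5 to 105.7 CPM in control libraries. Rpl26 had 168.9 to 217.8 CPM in PEG and 320.5 to 432.5 CPM in control libraries, and Rps27l had 106.4 to 149.9 and 160 to 238.4 CPM. In FRC libraries 1 to 9 Rpl26 had 138.4 to 152.1 CPM in PEG and 132.4 to 150 CPM in control libraries. Rplp2 in those libraries had 18.0 CPM or more in PEG, and all its controls there were lower, down to 14.3 CPM. The PEG and control ranges of Rpsa and Rps27l overlapped there. The PEG effect in FRC libraries 10 to 24 minus that in 1 to 9 was tested with all FRC libraries. None of the 82 genes passed by edgeR, where 0.00685% of 14595 genes passed, and 10 had an unadjusted p under 0.05, or 12.2%, against 7.93% of all genes. DESeq2 called 1 of the 82 lower and limma-voom 0. Rpl26 was at -0.97 ± 0.24, Rplp2 at -1.62 ± 0.50, Rps27l at -0.90 ± 0.28 and Rpsa at -0.76 ± 0.37 (edgeR adjusted p from 0.332 to 0.646).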
